A study of Rattus norvegicus with 6 samples.

Results

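Ion channels set the membrane potential of cells and let calcium in when it changes. They were followed here as every probe set whose only gene symbol starts with Kcn (potassium channels), Scn (sodium channels) or Cacn (calcium channels). That gave 81 of the 4736 genes on the array that have a probe set with a single symbol, through 128 of its 8799 probe sets: 82 potassium probe sets (54 genes), 20 sodium probe sets (13 genes) and 26 calcium probe sets (14 genes). This rule uses no measured value, though the members were chosen with earlier results of these data known. The values are deposited intensities, a linear brightness per probe set on each array.

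The samples were brain capillaries of 6-week-old SHRSP, the stroke-prone spontaneously hypertensive rat, an inbred strain with inherited high blood pressure. Per the labels there were 2 control arrays, 2 arrays of rats given lisinopril at 6 mg/kg per day (ACEI), and 2 arrays of rats given olmesartan at 4 mg/kg per day by mouth (ARB). Lisinopril is an angiotensin-converting enzyme inhibitor, which lowers the formation of angiotensin II, and olmesartan blocks the angiotensin type 1 receptor. The stated aim was the effect of angiotensin II on the genes of brain capillaries. The labels also name 1% NaCl, without saying for which groups. How many animals stand behind an array is unstated, so p-values measure only the spread between these arrays, which may be technical. In RNA of a whole preparation, fewer cells of a type and less RNA per cell cannot be told apart.

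In resistance vessels, potassium channels pull the membrane potential of smooth muscle and pericytes to negative values and relax them, while L-type calcium channels open on depolarisation and drive contraction. Endothelium is best known for inward rectifiers and calcium-activated potassium channels. Neurons carry the widest set of voltage-gated potassium, sodium and calcium channels. Pore subunits form the channel, and auxiliary subunits change its gating and transport to the membrane.

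The arrays differed in ways that touch these genes. The first arrays of the control and ACEI groups shared a run day, and the other 4 arrays, both ARB arrays among them, came from a later day and another chip lot. In each group the 2 arrays also had different fluidics protocols, one for every array 1 and the other for every array 2. On control 2 the 3' Gapdh probe set stood 7.31 times as high as its 5' partner, against 0.93 to 1.59 on the other 5 arrays. The 13 probe sets of endothelial marker genes had summed log2 values of 148.7 and 128.1 (control), 145.8 and 146.3 (ACEI) and 133.6 and 129.7 (ARB), and 0 of them were near background on all 6 arrays. The 25 probe sets of neuronal marker genes had summed log2 values of 190.7 and 198.5 (control), 208.3 and 206.3 (ACEI) and 216.4 and 225.1 (ARB), and 2 of them, both for Map2, were near background on all 6 arrays. Of the 11 neuronal marker probe sets tested, 11 were higher with ARB and 10 with ACEI, with median log2 differences of 1.34 and 0.63. The 12 probe sets of smooth muscle and pericyte markers had summed values of 127.2 and 117.2, 117.8 and 113.1, and 114.7 and 121.0 in the same order. Of these 10 were tested and 9 of those were lower with ARB (median -0.39) and 7 with ACEI (-0.53). Of the tested endothelial marker probe sets 9 of 13 were lower with ARB (median -0.56) and 9 were higher with ACEI (0.31). Markers of microglia and macrophages were lower with ARB in 8 of 8 tested probe sets (-0.86), those of oligodendrocytes in 8 of 10 (-0.64) and those of astrocytes in 7 of 10 (-0.49), while with ACEI 6, 9 and 9 of these were higher (0.52, 0.80 and 0.58). The 3 red cell probe sets were lower with both drugs (-1.58 with ARB and -1.01 with ACEI). The part of any of these in the channel results below was not tested.

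Background on each array was read from 15 control probe sets for the bacterial transcripts dap, lys, phe, thr and trp, which rat RNA does not hold. Their median intensity was 24.2 and 25.2 (control), 28.8 and 18.4 (ACEI) and 91.4 and 80.9 (ARB). It was therefore over 3-fold higher on both ARB arrays than on both controls. A channel probe set at or below 2 times this median on the same array was counted as near the foreign-control level. This held for 46 and 37 of the 128 (control), 39 and 52 (ACEI) and 46 and 48 (ARB), or 28.9% to 40.6%. Among all 8740 probe sets that are no controls it was 18.6% to 28.0%.

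Over the 6 arrays, 14 channel probe sets were near the foreign-control level on all of them, 41 on none, and 87 on at least 1. The 14 were 12 for potassium channels, 1 for a sodium channel (Scnn1b) and 1 for a calcium channel (Cacna1d, probe set U31772_s_at). Those for potassium channels were both probe sets of Kcna2, a Shaker-type delayed rectifier, 2 of the 4 of Kcnma1, the pore of the large-conductance calcium-activated channel, and probe sets of Kcnn3, Kcnt1, Kcnj6, Kcnk3, Kcna6, Kcnd3, Kcnq1 and Kcnq3. For these 14 no intensity above that level was measured in any group.

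**Figure D1:**
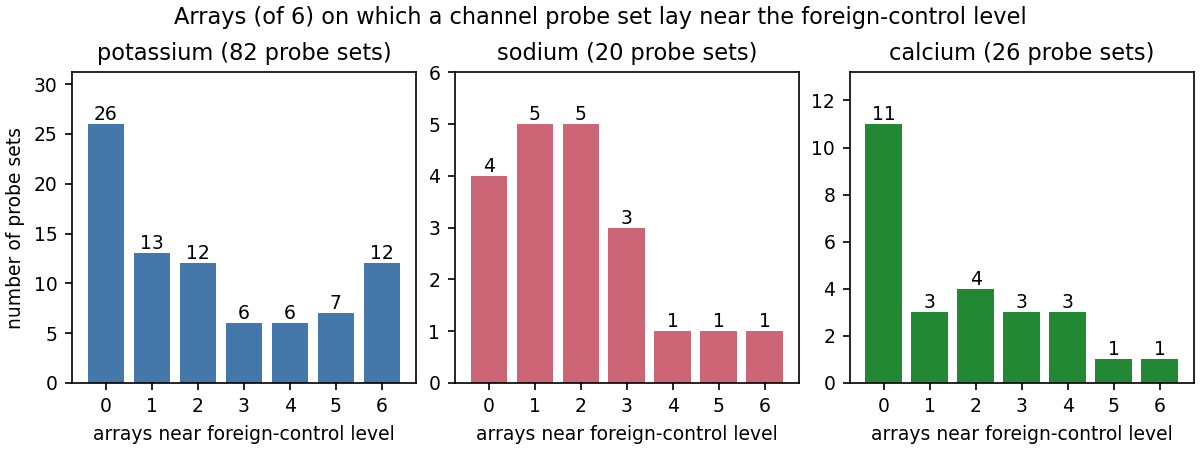
Number of channel probe sets (y axis) by the number of arrays, 0 to 6, on which the probe set lay at or below 2 times the foreign-control median (x axis), for each ion class. The bars at 0 hold 26 potassium, 4 sodium and 11 calcium probe sets, and those at 6 hold 12, 1 and 1.

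The channel probe sets as a whole stood higher on the ARB arrays in intensity. Their median was 75.9 and 100.3 (control), 122.0 and 60.3 (ACEI) and 319.3 and 245.7 (ARB). Divided by the foreign-control median of the same array, the median channel probe set was at 3.14 and 3.98 (control), 4.24 and 3.28 (ACEI) and 3.49 and 3.04 (ARB), so the groups overlapped. This division scales bright and dim probe sets of an array alike and does not subtract background. The divisor was largest on the ARB arrays, also in the ratios given below for single genes. The percentile of the median channel probe set among all probe sets of its array was 25.6 and 31.2, 29.0 and 26.7, and 38.8 and 33.7 in the same order, and here both ARB arrays were the highest.

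**Figure D2:**
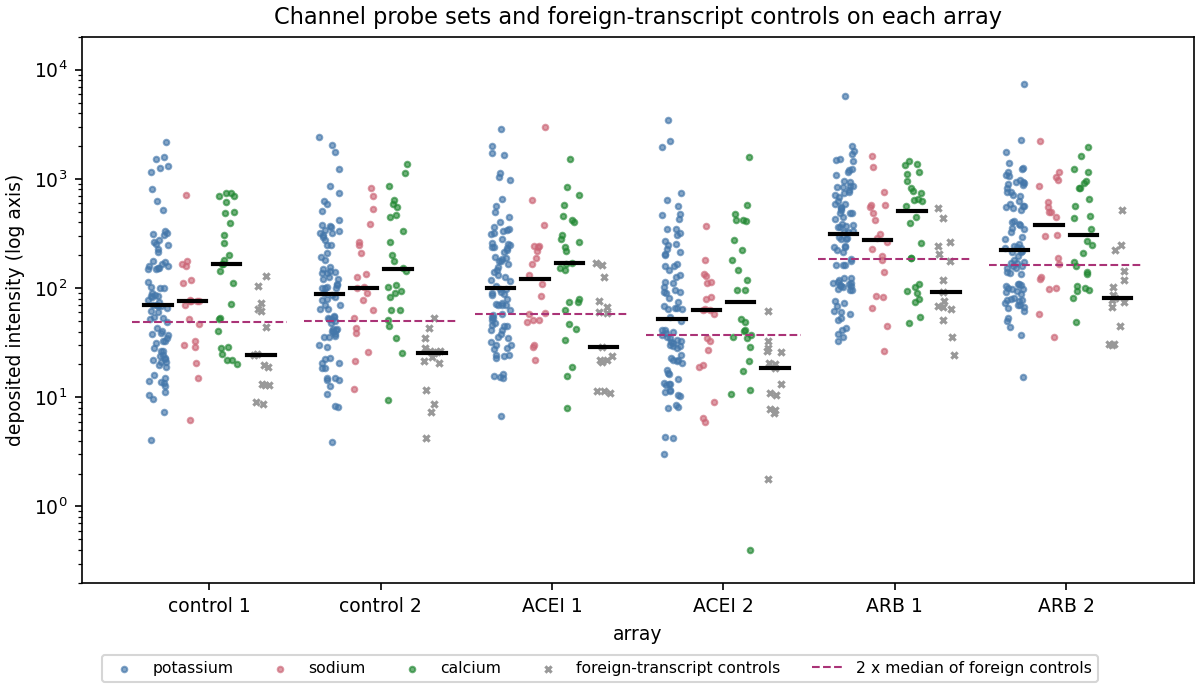
Deposited intensity (y axis, log scale) of each channel probe set by ion class, and of the 15 foreign-transcript controls (grey crosses), on each of the 6 arrays; black lines are medians and the dashed line is 2 times the foreign-control median. The dashed line lies at 182.8 and 161.8 on the ARB arrays and at 36.8 to 57.6 on the others, and the channel medians are higher on the ARB arrays too.

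Differences were taken on a log2 scale after adding 90 to each intensity, which understates the change of low probe sets. Without any filter, 119 of the 128 channel probe sets were higher with ARB than in the controls, with a median log2 difference of 0.82. All 8740 probe sets had a median of 0.43, with 69.6% higher, and the 15 foreign controls a median of 0.60, with 15 of 15 higher. By class the medians were 0.79 for potassium (79 of 82 higher), 1.22 for sodium (18 of 20 higher) and 0.79 for calcium (22 of 26 higher). After quantile normalization 87 of the 128 were higher with ARB (median 0.32) and after cyclic loess 85 (median 0.24), beside 50.8% and 49.8% of all probe sets. Counts of probe sets higher with ARB given below by role are from the deposited scale unless a normalization is named. With ACEI, 59 channel probe sets were higher and 69 lower, with a median of -0.03, and the foreign controls had a median of 0.00.

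**Figure D3:**
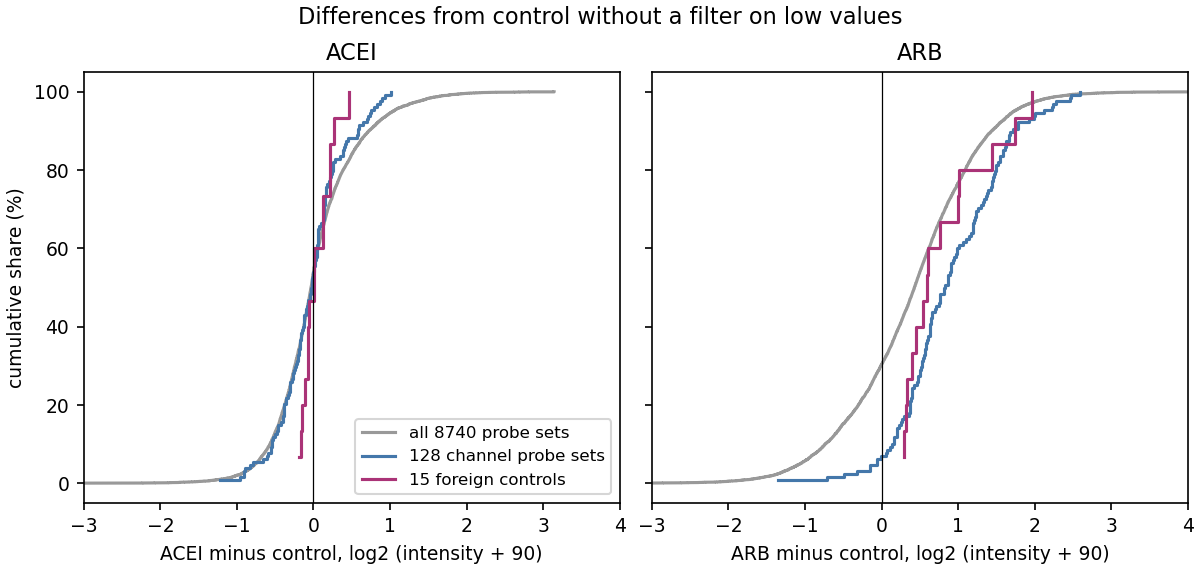
Cumulative share of probe sets (y axis, %) against the log2 difference from control (x axis), for ACEI (left) and ARB (right), with all 8740 probe sets in grey, the 128 channel probe sets in blue and the 15 foreign controls in purple. With ACEI the channel median is -0.03 and the foreign-control median 0.00; with ARB they are 0.82 and 0.60, against 0.43 for all probe sets.

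Before the test, the lowest 40% by mean over all arrays were removed, which kept 5244 probe sets and 41 of the 128 channel probe sets (25 potassium, 4 sodium and 12 calcium, for 34 genes). The nearest channel probe sets outside this limit were Scnn1g, Kcnmb1 (AB010963_s_at) and Kcna4 (X16002cds_s_at), at the 38.9, 39.4 and 39.8 percentile, and the nearest inside were Kcnh3 (AF073892_s_at), Kcng1 and Kcne1, at 40.9, 41.3 and 41.9. Because the mean covers the ARB arrays, 6 of the 41 passed only through them: Cacna1c (M89924cds_s_at), Cacng1, Kcne1, Kcnh1, Kcnh3 (AF073892_s_at) and Kcnh5. Counts over the 41 are given as description.

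No channel probe set passed an adjusted p of 0.05 in any of the 4 comparisons in limma, where 0 of all 5244 passed (0%). At an unadjusted p under 0.05, ARB against control had 13 of 41 channel probe sets higher and 0 lower, beside 12.6% higher and 4.69% lower among all 5244. ACEI against control had 0, beside 1.2% and 1.39%. RAS blockade, the mean of both drugs against control, had 3 higher and 0 lower, beside 3.05% and 2.02%. ARB against ACEI had 17 higher and 0 lower, beside 15.6% and 6.71%. These counts depended on single arrays. For ARB against control it was 4 higher without ARB 2 (beside 4.9% of all) and 8 without ARB 1 (6.05%), and 8 after quantile (7.63%) and 6 after cyclic loess normalization (6.62%). For ARB against ACEI it was 6 higher and 1 lower without ACEI 2 (4.42% and 2.14%), 10 higher without ARB 2 (7.15%) and 11 after cyclic loess (9.94%). For RAS blockade it was 2 after quantile (2.06%) and 1 after cyclic loess normalization (2.08%), and it also moved with single arrays left out. The lowest adjusted p among channel probe sets was 0.199 for ARB, 0.992 for ACEI, 0.863 for RAS blockade and 0.126 for ARB against ACEI. The calls depended on the model for ARB against ACEI: with array weights estimated, 10 channel probe sets passed among 518 of all 5244, all higher with ARB, and in a fit of these groups alone 4 passed (Cacng1, Kcnh1, Kcnh5 and Scnn1a) among 305. Of these 4, Cacng1, Kcnh1 and Kcnh5 had entered the test only through the ARB arrays. Leaving out either control gives that same fit. Without control 2, Kcnh1 passed for ARB against control, as 1 of 46 in all, with control 1 as the only control, where it lay below the foreign-control median. ARB against ACEI shares the ARB arrays with ARB against control, so these are not separate support.

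Both ARB arrays lay above both controls for 26 of the 41, beside 33.4% of all 5244, and below both for 1 (Kcnj8), beside 16.8%. For ACEI the counts were 3 above and 4 below, beside 11.6% and 11.9%. All 4 treated arrays lay above both controls for 3 (Kcna1 by probe set M26161_at, Kcnc1 and Cacna2d1), beside 4.63%, and below for 0, beside 3.72%. For Kcna1 the gap was minimal, with 214.0 on control 1 and 214.1 on ACEI 2. ARB lay above ACEI for 28, beside 37.1%, and below for 1, again Kcnj8, beside 25.3%. The ARB mean was above the ACEI mean for 36 of the 41, beside 56.5%.

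The median difference of the 41 was 0.90 for ARB, -0.15 for ACEI and 0.39 for RAS blockade, and 37, 17 and 33 of them were higher. For RAS blockade the median was 0.60 without ACEI 2, 0.22 on the later run day alone (24 of 41 higher), 0.24 after quantile and 0.22 after cyclic loess normalization. All 5244 had medians of 0.18, -0.04 and 0.13, with 58.1%, 46.9% and 59.6% higher, so the channel median for ARB lay 0.72 above that of all probe sets. Without a filter it lay 0.39 above, and with the lowest 60% left out 0.55 above. All probe sets had ARB medians of 0.43 and 0.03 in these settings. The 41 were dimmer than all 5244 on each array, with median intensities of 314 against 819 on control 1. No comparison at equal intensity was made. After quantile normalization 33 of 42 channel probe sets were higher with ARB (median 0.46) and after cyclic loess 32 of 41 (median 0.48), while the share of all probe sets became 47.1% and 50.0%. For RAS blockade these normalizations gave 28 of 42 and 25 of 41 higher. With the foreign-control median of each array subtracted first, which was chosen after seeing the data, 36 of 43 were higher with ARB with a median of 0.86. Over all alternatives, the ARB difference changed sign for 12 of the 41, 6 of them under a normalization: both probe sets of Cacna1b and of Kcnj11, and the tested ones of Cacna1g, Cacnb2, Kcng1, Kcnh4, Kcnmb1, Kcns3 and Scn3a, and X12589cds_s_at of Kcna1. The ACEI difference changed sign for 25 and the RAS blockade difference for 21.

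The ACEI values differed by run day. Within the first day, ACEI 1 minus control 1 had a median of 0.34 over the 41, with 34 higher, and within the later day, ACEI 2 minus control 2 had -0.68, with 31 lower. Over all 5244 probe sets these medians were 0.07, with 2957 higher, and -0.17, with 2979 lower. The mean over both days near 0 is therefore made of opposite values, and the median was 0.17 without ACEI 2 and -0.52 without ACEI 1. ARB arrays were run on the later day alone, where the median against control 2 was 1.00, with 37 of 41 higher. For this same difference all 5244 probe sets had a median of 0.31, with 3181 higher. The foreign controls had a median of 0.61, with 15 of 15 higher.

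**Figure D4:**
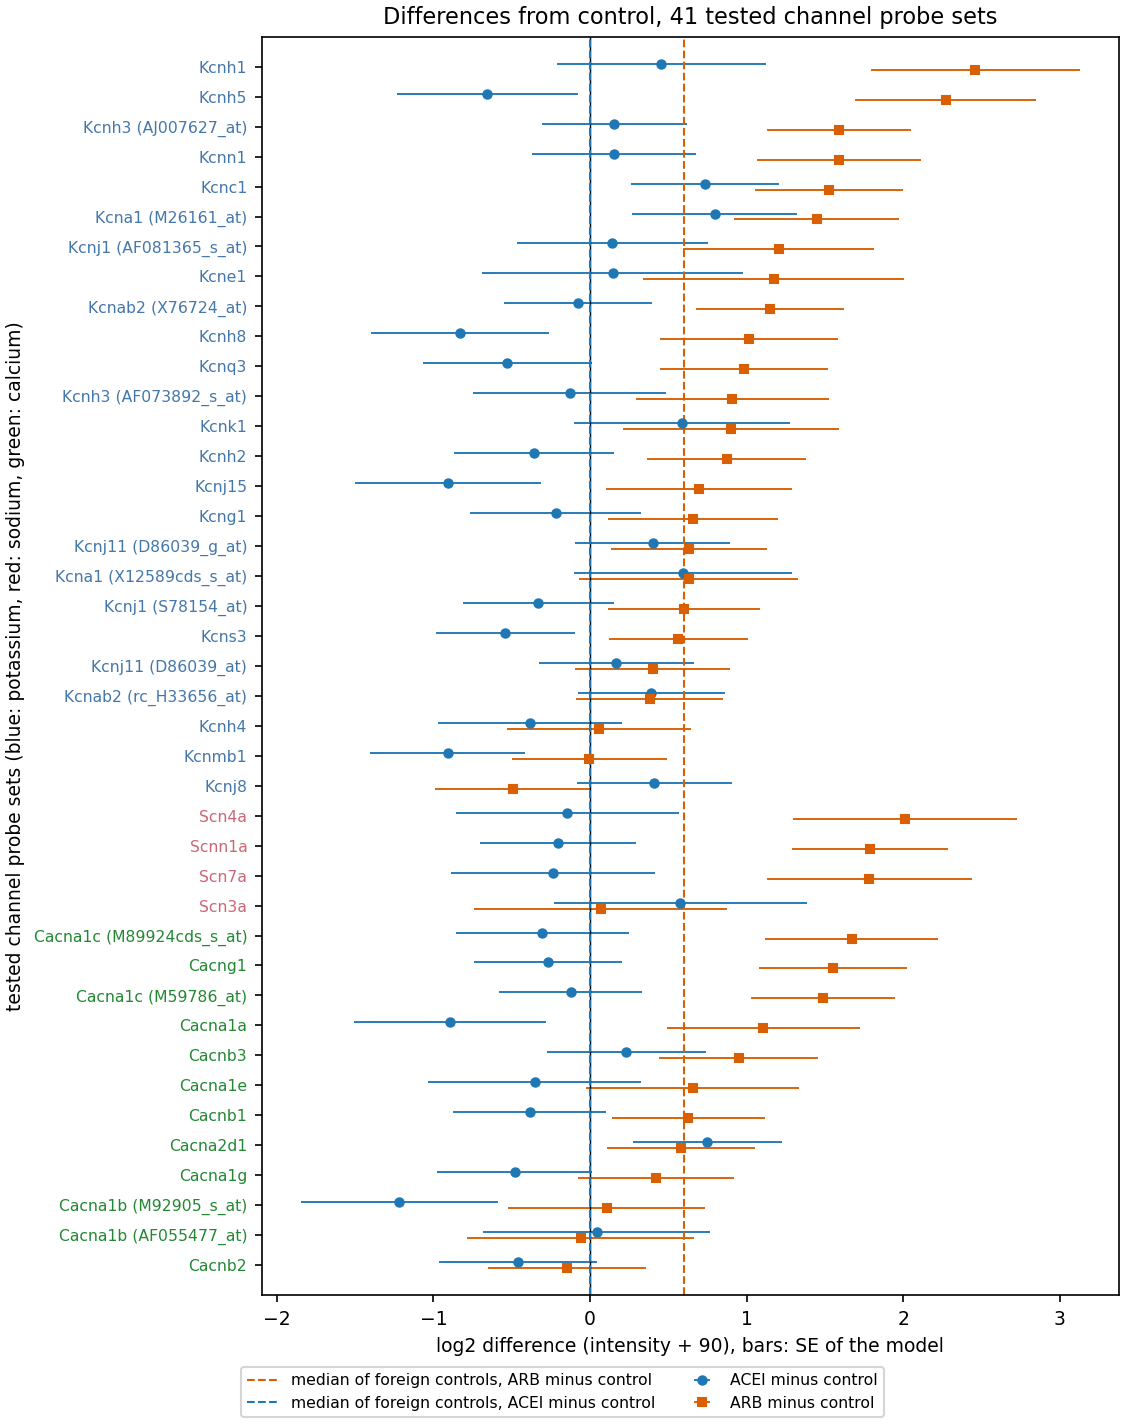
Log2 difference from control (x axis, intensity plus 90) of the 41 tested channel probe sets (y axis), for ACEI (blue circles) and ARB (orange squares), with bars of 1 SE of the model and dashed lines at the foreign-control medians of 0.00 and 0.60. For ARB, 37 of the 41 lie above 0 and 4 below, and for ACEI 17 lie above and 24 below.

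Voltage-gated potassium pore subunits, which open on depolarisation and repolarise the cell, were the largest role with 36 probe sets of 22 genes. 35 of the 36 were higher with ARB (median 1.00 without filter), 18 with ACEI (median 0.02), and 11 were tested. After quantile and cyclic loess normalization 29 and 28 of the 36 were higher with ARB. Among the 11, all from 9 genes, 5 were at an unadjusted p under 0.05 for ARB (beside 12.6% of all 5244 higher) and 3 for RAS blockade (beside 3.05%). Of the 11, Kcnh1, Kcnh5 and Kcnh3 (AF073892_s_at) had entered the test only through the ARB arrays. Kcnh1 and Kcnh5 were among the 5, and Kcnh1 also among the 3, so these counts are description.

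Kcnh1 and Kcnh5 encode the ether-a-go-go channels of neurons. Kcnh1 had intensities of 13.4 and 331 (control), 238 and 159 (ACEI) and 1208 and 923 (ARB). The difference was 2.46 ± 0.67 for ARB (5.50-fold higher, adjusted p = 0.201) and 0.45 ± 0.67 for ACEI. Control 1 was far below control 2 and lay under the foreign-control median of its array, so a difference from control 1 alone has no measured lower level. Kcnh5 had intensities of 101 and 307 (control), 168 and 28.2 (ACEI) and 1094 and 1402 (ARB). Both ARB arrays were above the other 4, with a difference of 2.27 ± 0.58 from control (adjusted p = 0.199) and 2.93 ± 0.58 from ACEI (adjusted p = 0.126), where ACEI 2 was near the foreign-control level. In intensity divided by the foreign-control median, Kcnh5 was at 4.18 and 12.2 (control), 5.83 and 1.53 (ACEI) and 12.0 and 17.3 (ARB).

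Kcnh3, an ether-a-go-go-like channel of forebrain neurons, had the probe set AJ007627_at at intensities of 2169.6 and 2048 (control), 2843 and 1953 (ACEI) and 5726 and 7432 (ARB). The controls were close to each other, and both ARB arrays stood above the other 4 with a difference of 1.59 ± 0.46 (3.01-fold, adjusted p = 0.207). Its other probe set, AF073892_s_at, differed by 0.91 ± 0.62. Divided by the foreign-control median, AJ007627_at was at 89.7 and 81.3 (control), 98.7 and 106 (ACEI) and 62.6 and 91.9 (ARB), so on this measure, which does not subtract background, the ARB arrays were not the highest. Kcnh8, a relative of it, had a tested probe set at intensities of 334 and 417 (control), 345 and 65.5 (ACEI) and 862 and 829 (ARB), with 1.01 ± 0.57 for ARB and -0.83 ± 0.57 for ACEI. Kcnh2, the rapid delayed rectifier of the heart, differed by 0.87 ± 0.51 with ARB in its tested probe set and by 0.89 in the other one. Kcnh4 had 0.06 ± 0.59 with ARB and overlapping groups.

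Kcnc1, a fast delayed rectifier of fast-firing neurons, was among the 3 probe sets with all treated arrays above both controls. It had intensities of 174 and 364 (control), 501 and 469.6 (ACEI) and 926 and 887 (ARB). The differences were 1.13 ± 0.41 for RAS blockade (2.19-fold, adjusted p = 0.863), 0.73 ± 0.47 for ACEI and 1.53 ± 0.47 for ARB. The 2 ACEI and the 2 ARB values were each close together, and control 1 was below control 2. Kcna1, a Shaker-type channel of axons, was also among the 3, by probe set M26161_at. Its intensities were 214.0 and 52.2 (control), 339 and 214.1 (ACEI) and 425 and 535 (ARB), which gave 1.12 ± 0.46 for RAS blockade. Control 1 and ACEI 2 were nearly equal, so its place among the 3 rests on that narrow gap. The other probe set of Kcna1 gave 0.61 ± 0.60. In both probe sets the lowest array was control 2, the one with the high Gapdh ratio. Kcnq3, a subunit of the neuronal M-current, differed by 0.98 ± 0.54 with ARB and -0.53 ± 0.54 with ACEI in the tested probe set, while its other probe set was near background on all 6 arrays.

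The 25 voltage-gated potassium probe sets that were not tested had low mean intensities. Kcna4 and Kcna6, both from the Shaker family, had the widest ARB differences among them: X16002cds_s_at of Kcna4 had intensities of 83.7 and 53.4 (control), 231 and 35.1 (ACEI) and 792 and 930.3 (ARB), a difference of 2.59, and M27159cds_s_at of Kcna6 had intensities of 38.3 and 127 (control), 141 and 41.2 (ACEI) and 846 and 566 (ARB), a difference of 2.23. The second probe sets of the same genes, at or near the foreign-control level on 4 and 6 arrays, gave 0.74 and 0.64. All 4 probe sets of Kcnc2 were higher with ARB, by 1.07 to 1.93, and 3 of them were near the foreign-control level on 4 or 5 arrays. Kcna5, the main Shaker-type channel of vascular smooth muscle, had intensities of 101 and 101 (control), 252 and 345 (ACEI) and 162 and 152 (ARB). It was higher with ACEI by 1.01 (0.84 and 1.18 within the first and the later day). With ARB the difference was 0.37, and both ARB arrays were near the foreign-control level.

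Electrically silent subunits, which join other pore subunits without forming a channel alone, had 5 probe sets, of which 5 were higher with ARB (0.48 to 1.62) and 5 lower with ACEI (-0.54 to -0.22). After quantile and cyclic loess normalization 3 and 2 of the 5 were higher with ARB, and 5 stayed lower with ACEI under both. Kcns3 had intensities of 275 and 378 (control), 189 and 199 (ACEI) and 485 and 556 (ARB). Both ACEI arrays lay below and both ARB arrays above both controls, with differences of -0.54 ± 0.44 and 0.56 ± 0.44, and ARB minus ACEI was 1.10 ± 0.44 (adjusted p = 0.195). With quantile normalization the ARB difference from control was -0.06, and with cyclic loess -0.03. Kcng1 differed by 0.66 ± 0.54 with ARB and its groups overlapped. Its ACEI difference of -0.22 became 0.18 without ACEI 2 and 0.09 without control 2.

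Auxiliary potassium channel subunits had 8 probe sets, 4 of them tested. Kcnmb1, the smooth muscle beta subunit of the large-conductance calcium-activated channel, had 2 probe sets that did not give one picture. AF020712_at had intensities of 1519.6 and 1241 (control), 978 and 479 (ACEI) and 1515 and 1236 (ARB). The ARB arrays overlapped the controls (-0.0048 ± 0.50) and both ACEI arrays were lower (-0.91 ± 0.50, adjusted p = 0.992). AB010963_s_at had intensities of 15.0 and 99.1 (control), 240.1 and 111 (ACEI) and 764 and 629 (ARB), and was 2.48 higher with ARB and 0.87 higher with ACEI, from a control 1 near the foreign-control level. Kcnab2, a cytosolic beta subunit of Shaker channels, was higher with ARB in both probe sets, by 1.15 ± 0.47 and 0.38 ± 0.47. Kcne1, the partner of Kcnq1, had intensities of 264 and 82.1 (control), 360.1 and 74.9 (ACEI) and 1150.4 and 159 (ARB) in its tested probe set, and only ARB 1 was above the other arrays (ARB difference 1.17 ± 0.83). That probe set had entered the test only through the ARB arrays.

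Inward rectifiers, which hold the resting potential, had 22 probe sets of 15 genes. Of these 21 were higher with ARB (median 0.57) and 12 with ACEI (median 0.01), and 6 were tested. After quantile and cyclic loess normalization 11 and 12 of the 22 were higher with ARB (medians 0.03 and 0.07). Kcnj8, the pore of the ATP-sensitive potassium channel of vascular smooth muscle and of brain pericytes, was the exception on the deposited scale alone. After quantile and cyclic loess normalization 11 and 10 of the 22 were lower with ARB. Kcnj8 was tested. It had intensities of 1578 and 2435 (control), 2004 and 3454 (ACEI) and 1477 and 1269 (ARB). Both ARB arrays were below both controls and both ACEI arrays, with a difference of -0.49 ± 0.50 from control (1.41-fold lower, adjusted p = 0.628) and -0.90 ± 0.50 from ACEI, and the ACEI difference was 0.41 ± 0.50. Divided by the foreign-control median, which was highest on the ARB arrays, Kcnj8 was at 65.2 and 96.6 (control), 69.6 and 188 (ACEI) and 16.2 and 15.7 (ARB). Over the alternative processings the ARB difference ran from -0.83 to -0.19, so its sign was negative in each of them while none called it.

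Kcnj11, the other pore of this channel type, had intensities of 804 and 746 (control), 1045 and 742 (ACEI) and 1454 and 751 (ARB) for D86039_at and gave 0.40 ± 0.50 and 0.63 ± 0.49 with ARB in its probe sets, which carry the same accession in their names. Its groups overlapped in the first, where the difference was -0.04 without ARB 1, and in the other it was -0.01 after quantile normalization. Kcnj1, the potassium channel of the renal tubule, had 3 probe sets, all higher with ARB, by 0.60 to 1.99. Kcnj15 differed by 0.69 ± 0.59 with ARB and -0.91 ± 0.59 with ACEI. Kcnj2, the strong inward rectifier of arteriolar muscle and endothelium, had intensities of 19.6 and 14.5 (control), 14.9 and 13.1 (ACEI) and 365 and 91.4 (ARB), near the foreign-control level on 5 of 6 arrays. Kcnj10, the glial inward rectifier, was near that level on 2 arrays in each of its probe sets, and Kcnj3, Kcnj6 and Kcnj9, subunits of the neuronal channels opened by G proteins, on 2 to 6 arrays per probe set.

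Channels opened by intracellular ions had 7 probe sets, and 4 of these were near the foreign-control level on all 6 arrays. Of the 4 probe sets of Kcnma1, U93052_s_at was near it on 1 array, with intensities of 69.4 and 63.8 (control), 69.5 and 33.6 (ACEI) and 244 and 198 (ARB). The 4 were higher with ARB by 0.23 to 0.98. Of the 7 probe sets of this role 7 were higher with ARB, and 5 and 4 after quantile and cyclic loess normalization. Kcnn1, a small-conductance calcium-activated channel of neurons, was the only one tested. It had intensities of 158 and 296 (control), 258 and 251 (ACEI) and 1237 and 563 (ARB), a difference of 1.59 ± 0.52 with ARB and 0.15 ± 0.52 with ACEI. Kcnn3, its relative in endothelium and smooth muscle, had intensities of 13.8 and 8.1 (control), 23.9 and 21.4 (ACEI) and 104 and 72.6 (ARB), all near background. Leak channels with 2 pore domains had 4 probe sets, all higher with ARB (0.29 to 0.90), of which 2 were higher and 2 lower after either normalization. Of these Kcnk1 was tested at intensities of 1267 and 338 (control), 1709 and 636 (ACEI) and 1680.3 and 1054 (ARB), where control 2 was the lowest array and the groups overlapped.

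Voltage-gated sodium pore subunits, which drive action potentials, had 16 probe sets of 9 genes. Of these 14 were higher with ARB (median 1.07), 9 after either normalization, and 6 with ACEI (median -0.17), and 3 were tested. Scn4a, the skeletal muscle channel, had intensities of 177 and 823 (control), 646 and 181 (ACEI) and 1607 and 2242 (ARB) for M26643_g_at and a difference of 2.01 ± 0.71 with ARB, while its other probe sets gave -0.15 and 0.57. Scn7a, a sodium-sensing channel of glia, had intensities of 119.7 and 534 (control), 378 and 111 (ACEI) and 1286 and 1037 (ARB) and 1.78 ± 0.65. Its other probe set, which was not tested, gave 0.93 with ARB. With ACEI that one gave 0.57 and the tested one -0.24. In the tested probe sets of both genes the controls spanned over 4-fold between themselves. Scn3a had intensities of 714 and 703 (control), 2969 and 373 (ACEI) and 571 and 969.8 (ARB). ACEI 1 alone was high, so the RAS blockade difference of 0.32 ± 0.70 became -0.36 without it.

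The subunits of adult brain neurons, Scn1a, Scn2a and Scn8a, were not tested. Scn1a had intensities of 6.2 and 101 (control), 188 and 82.8 (ACEI) and 311 and 304 (ARB). Scn2a had intensities of 52.2 and 77.3 (control), 244 and 134 (ACEI) and 26.4 and 98.2 (ARB), higher in both ACEI arrays than in both controls (0.83) and near the foreign-control level on both ARB arrays. The 3 probe sets of Scn8a were higher with ARB by 0.39 to 1.72. The sensory neuron channels Scn9a, Scn10a and Scn11a were near the foreign-control level on 1 or 2 arrays per probe set, and the auxiliary subunit Scn2b on 5.

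The epithelial sodium channel is built of the subunits Scnn1a, Scnn1b and Scnn1g and takes up sodium in the kidney and the colon, where aldosterone raises it. Scnn1a had intensities of 159 and 264 (control), 236 and 113 (ACEI) and 759 and 1145 (ARB). Both ARB arrays were above the other 4, with a difference of 1.79 ± 0.50 from control (3.45-fold, adjusted p = 0.201) and 1.99 ± 0.50 from ACEI. Divided by the foreign-control median, it was at 6.58 and 10.5 (control), 8.21 and 6.15 (ACEI) and 8.30 and 14.2 (ARB). Scnn1g had intensities of 110.4 and 53.7 (control), 243 and 32.6 (ACEI) and 570.3 and 863 (ARB) and lay just outside the filter, with 2.22 for ARB. Scnn1b was near the foreign-control level on all 6 arrays.

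L-type calcium channel pores, which carry the calcium current of muscle contraction, had 10 probe sets of 3 genes. Cacna1c, the L-type pore of heart and vascular smooth muscle, was higher with ARB in each of its 3 probe sets. M59786_at had intensities of 499 and 593 (control), 576 and 419 (ACEI) and 1458 and 1953 (ARB). The controls and the ACEI arrays overlapped and the ARB arrays stood above them, with a difference of 1.49 ± 0.46 (2.80-fold, adjusted p = 0.212). M89924cds_s_at, which had entered the test only through the ARB arrays, gave 1.67 ± 0.55, and U31815_s_at, which was not tested, 1.24. For ACEI the 3 lay between -0.51 and -0.12. Divided by the foreign-control median, M59786_at was at 20.6 and 23.5 (control), 20.0 and 22.8 (ACEI) and 16.0 and 24.1 (ARB), so that ratio overlapped between the groups. Of the 5 probe sets of Cacna1d, the L-type pore of neurons and pacemaker cells, 4 were higher with ARB and 1 lower (-0.71 to 1.44), and each was near the foreign-control level on 2 to 6 arrays. Cacna1s, the skeletal muscle pore, was near it on 4 and 5 arrays.

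The pores of presynaptic calcium channels had 7 probe sets, 4 of them tested. Cacna1a, the P/Q-type pore, was higher with ARB in all 4 probe sets, by 0.50 to 1.66. Its tested probe set had intensities of 689.5 and 201 (control), 262 and 96.6 (ACEI) and 749 and 1163 (ARB), with 1.11 ± 0.61 for ARB and -0.89 ± 0.61 for ACEI. Cacna1b, the N-type pore, had intensities of 484 and 556 (control), 239 and 119 (ACEI) and 1113 and 267 (ARB) for M92905_s_at, where both ACEI arrays were below both controls (-1.22 ± 0.63, adjusted p = 0.992). Its other probe set gave 0.04 ± 0.72 for ACEI, and the ARB pair differed over 4-fold within itself in both. Cacna1e, the R-type pore, overlapped between groups. Of the T-type pores, which open near rest, Cacna1g had intensities of 742 and 637 (control), 456 and 478 (ACEI) and 1373 and 651 (ARB), with both ACEI arrays below both controls (-0.48 ± 0.50), and Cacna1h was not tested and had 1.50 for ARB and 0.94 for ACEI.

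Auxiliary calcium channel subunits had 7 probe sets, 5 of them tested. Cacna2d1, the alpha-2-delta subunit of L-type channels and the binding site of gabapentin, had intensities of 692 and 1128 (control), 1518 and 1584 (ACEI) and 1155 and 1617 (ARB). All 4 treated arrays were above both controls, with 0.66 ± 0.41 for RAS blockade (1.58-fold, adjusted p = 0.863), 0.75 ± 0.47 for ACEI and 0.58 ± 0.47 for ARB. Control 2 and ARB 1 lay close together. Cacnb3, a beta subunit of smooth muscle and brain, had intensities of 258 and 335 (control), 309 and 421 (ACEI) and 952 and 438 (ARB), and 0.95 ± 0.51 with ARB. Cacnb2 was the only gene with several probe sets that were all lower with ARB, though rc_AA891260_at was 0.37 higher without control 2: M80545_at had intensities of 306 and 445 (control), 166 and 274 (ACEI) and 78.8 and 104 (ARB), a difference of -1.35 with both ARB arrays near the foreign-control level, and rc_AA891260_at had -0.15 ± 0.50. Cacng1, a subunit of the skeletal muscle channel, differed by 1.55 ± 0.47 with ARB and 1.82 ± 0.47 against ACEI. Its probe set had entered the test only through the ARB arrays. Cacnb1 and Cacnb4 gave 0.63 and 0.91 with ARB, and Cacnb4 was near the foreign-control level on 3 arrays. For Cacnb4 ARB 1 (47.7) lay below both controls (52.2 and 89.2), and only ARB 2 (561) was higher.

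**Figure D5:**
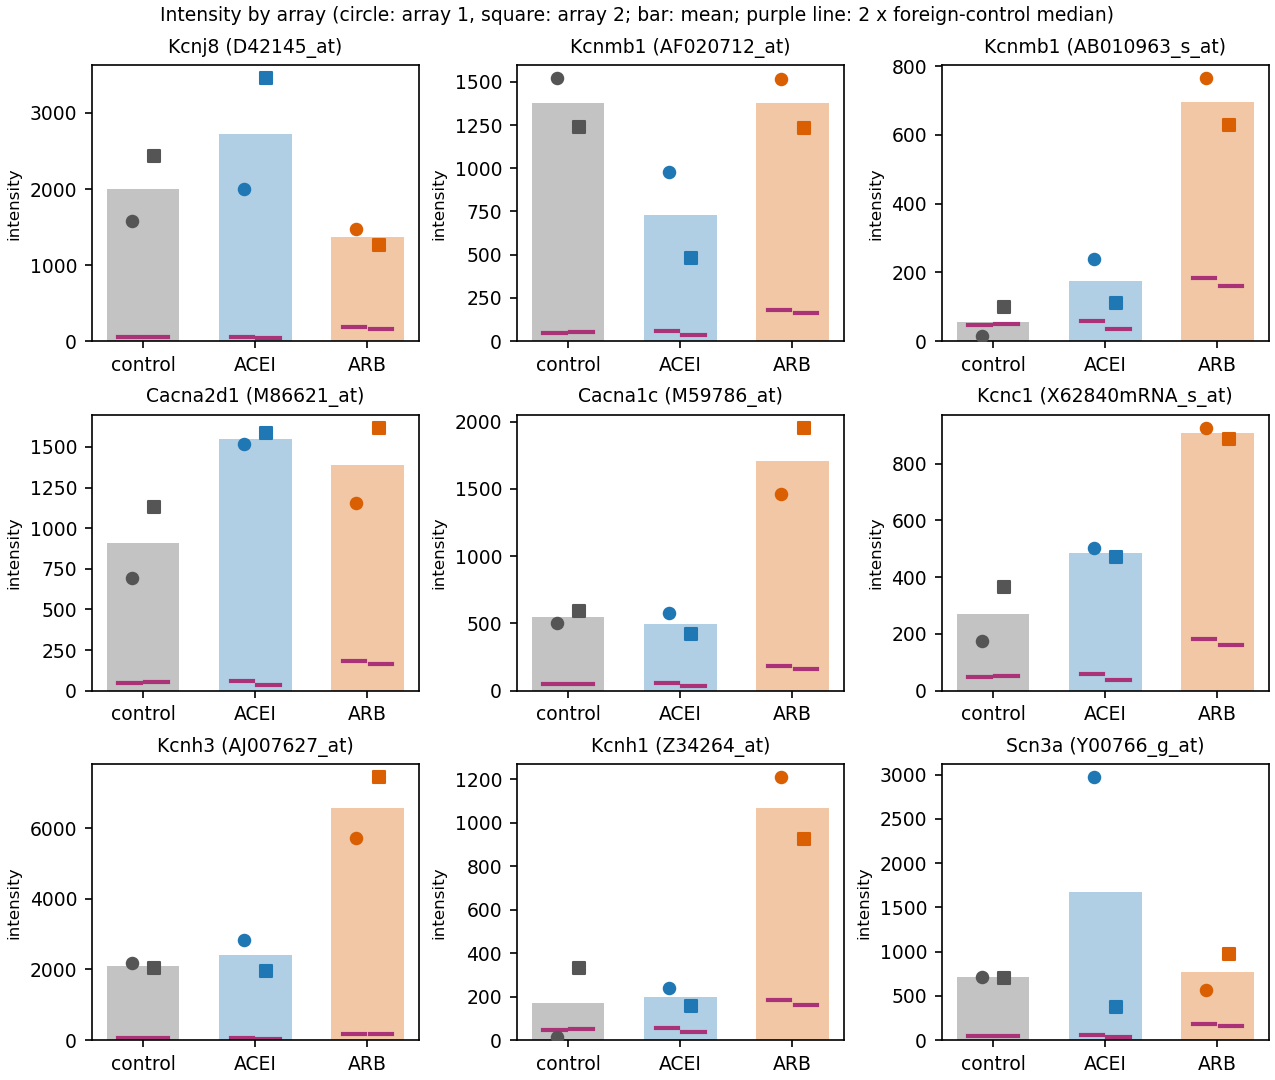
Deposited intensity (y axis, from 0) of 9 channel probe sets by group (x axis), with a circle for array 1, a square for array 2, a bar at the mean of both and purple lines at 2 times the foreign-control median of each array. Kcnj8 is lowest on both ARB arrays (1477 and 1269), Kcnmb1 differs between its probe sets, and Kcnh3 (AJ007627_at) stands at 5726 and 7432 on the ARB arrays against 1953 to 2843 on the others.

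Probe sets of the same gene share a transcript and are not replicates, and those whose names end in s_at can share probes with related transcripts. Of the 33 genes with several probe sets, 28 had the same sign for ARB in all of them, 27 higher and 1 lower (Cacnb2). The exceptions were Cacna1b, Cacna1d, Kcnd3, Kcnmb1 and Scn4a. For ACEI 15 of the 33 had the same sign, 7 higher and 8 lower.

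Channel genes known from vessel wall cells and from neurons were also set side by side, as lists taken from general knowledge. Of 24 vessel genes 18 were measured, Abcc9 included, the partner of Kcnj8. The 10 channel probe sets tested (8 genes) had medians of 0.50 for ARB (7 higher and 3 lower), 0.02 for ACEI (5 higher and 5 lower) and 0.40 for RAS blockade (6 higher and 4 lower). Of 37 neuronal genes 26 were measured, and the 16 probe sets tested (12 genes) had medians of 0.95 (15 higher and 1 lower), 0.10 (9 higher and 7 lower) and 0.39 (14 higher and 2 lower). At an unadjusted p under 0.05 for ARB there were 2 vessel probe sets, both of Cacna1c, and 6 neuronal ones, beside 12.6% of all 5244 higher. Of the Cacna1c probe sets, M89924cds_s_at had entered the test only through the ARB arrays. The neuronal probe sets Kcnh1, among the 6, and Kcnh3 (AF073892_s_at) had also entered only through the ARB arrays. The neuronal marker genes were higher on the same arrays, as given above, and no difference between the lists was tested.

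Other genes that carry the same ions or set the membrane potential, such as pumps, exchangers, TRP and chloride channels, gave 41 tested probe sets (23 genes of the 55 listed, 39 measured). Of these 30 were higher and 11 lower with ARB, with a median of 0.47, and 29 and 12 with RAS blockade (median 0.27). For ARB 4 of the 41 were at an unadjusted p under 0.05, beside 12.6% of all 5244 higher, so their share was no larger than the background. All 4 were higher: Trpv1, a cation channel opened by heat and capsaicin (2.24), Atp1b1, a subunit of the sodium pump (2.12 in 1 of 3 tested probe sets), Atp2b2, a plasma membrane calcium pump (1.82 in 1 of 3, with 0.82 and -0.55 in the others) and Atp2a2, the sarcoplasmic calcium pump (1.50 in 1 of 4). None passed adjustment, with a lowest adjusted p of 0.199. Abcc9, the sulfonylurea receptor of the vascular ATP-sensitive channel, gave -0.53 and 0.59 with ARB in its tested probe sets.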

How the data were processed

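The deposited table held 1 linear intensity per probe set for each of 6 Affymetrix rat expression arrays, and the authors had scaled each array to a common level: trimmed by 2% at either end, the means were 997.7 to 1002, as read from the values. The software and its background correction are not given in the sources used here. Run days, chip lots and fluidics protocols come from the file headers. Genes come from the array's annotation table (7018 probe sets with 1 symbol, 308 with several, 1473 with none), and all 81 member genes matched the RefSeq gene table with 0 symbols changed. Where the control and ACEI titles carry no number, they were read as replicate 1.

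From the deposited intensities, log2(intensity + 90) was computed, where 90 comes from dividing by 4 the median positive value, 358.3. No normalization between arrays was added. The 59 control probe sets were kept out, leaving 8740, and the 40% with the lowest mean were left out, leaving 5244. All 6 arrays entered a limma 3.58.1 fit (R 4.3.3) of the 3 group means (two-sided, Benjamini-Hochberg adjustment, threshold 0.05), and values are log2 differences ± SE. The script was checked on simulated data. The 2 arrays per group limit the precision. Python 3.11.15, pandas 2.3.3 and matplotlib 3.10.9 made tables and figures.

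Named were, per ion class, the 4 tested members with the largest difference for RAS blockade and the 2 for ARB against ACEI, every member at an unadjusted p under 0.05 or with all treated arrays beyond both controls, genes with several probe sets, and the vessel and neuronal lists. Other members were named to account for each role, after their values were seen. The members, the lists and the alternatives were chosen with earlier results of these data known. The stretch of protein planned for display is not shown, as no protein table was used here.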

Additional observations from a re-analysis of the deposited data

Results flagged for a closer look

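Kcns3, an electrically silent potassium channel subunit, was the only tested channel probe set (Y17607_s_at) with both ACEI arrays below and both ARB arrays above both controls. Its intensities were 275 and 378 (control), 189 and 199 (ACEI) and 485 and 556 (ARB). ARB minus ACEI was 1.10 on the log2 scale, with an adjusted p of 0.195 in limma, so it did not pass. ARB minus control was 0.56, but with quantile normalization it was -0.06 and with cyclic loess -0.03, so the ARB side of the pattern depended on the scaling. The foreign-transcript controls had a median of 0.55 for ARB minus ACEI, and their part in this result was not tested. The share of all tested probe sets with the Kcns3 pattern was not counted, so the Kcns3 result is given as description. Taken alone, both ACEI arrays lay below both controls in 11.9% of all tested probe sets. Both ARB arrays lay above both controls in 33.4% of them.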

How the results depend on the processing

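No channel probe set passed adjustment in limma for RAS blockade or ACEI against control under any alternative. For ARB against control 0 passed except that, with arrays left out in turn, it was 0 to 1 (Kcnh1 without control 2, against a control 1 below the foreign-control median). For ARB against ACEI, 10 passed with array weights, 4 when just these groups were fitted and 0 to 4 with arrays left out, where the 4 come from the same fit. Where an array was left out, the lone array of its group was assumed to vary like the others. The median channel difference for ARB was 0.58 with the lowest 60% left out, 0.46 after quantile and 0.48 after cyclic loess normalization, and 1.23 with run day as a block. For ARB against ACEI it was 1.33 without an offset, 0.70 with an offset equal to the median, 0.56 after quantile and 0.59 after cyclic loess normalization, 1.42 on the later run day alone, and 0.75 to 1.42 with arrays left out. For ACEI it was -0.68 on the later run day alone and -0.52 to 0.17 with arrays left out. The later run day alone, the subtraction of the foreign-control median and the normalizations without a filter were chosen after seeing the data.

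Counts of channel probe sets with groups apart moved as follows, each with the share of all probe sets in parentheses. Without a filter (128 of 8740), 12 were higher (6.42%) and 1 lower (2.64%) for RAS blockade, 13 (11.6%) and 17 (12.9%) for ACEI, 91 (43.9%) and 3 (11.1%) for ARB, and 89 (46.9%) and 6 (17.3%) for ARB against ACEI. With the lowest 60% left out (15 tested), 1 was higher for RAS blockade (4.86%), 1 higher (12.1%) and 2 lower (11.4%) for ACEI, 8 higher for ARB (28.4%) and 9 higher for ARB against ACEI (32.9%). After quantile normalization 7 were lower for ACEI (14.1%), 17 higher for ARB (24.2%) and 2 lower for ARB against ACEI (30.7%), and after cyclic loess 7 were lower for ACEI (13.4%) and 17 higher for ARB (26.0%). On the later run day alone, with 1 control and 1 ACEI array, 9 were higher (27.1%) and 1 lower (22.8%) for RAS blockade, 10 (43.2%) and 31 (56.8%) for ACEI, and 2 lower for ARB (31.1%) and 2 for ARB against ACEI (34.9%). With arrays left out, 3 to 10 were higher (5.78% to 25.2%) and 0 to 2 lower (4.84% to 21.1%) for RAS blockade, 3 to 15 (11.6% to 36.2%) and 4 to 25 (11.9% to 38.9%) for ACEI, 1 to 5 lower for ARB (16.8% to 33.9%) and 1 to 3 lower for ARB against ACEI (25.3% to 35.7%).

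At or below the highest foreign control lay 81 and 40 channel probe sets on the control arrays, 75 and 64 with ACEI, and 83 and 85 with ARB. At or below their median lay 25 and 18 (control), 16 and 26 (ACEI) and 23 and 19 (ARB).

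The RAS blockade difference changed sign on the later run day alone for Scn4a (M26643_g_at, -0.32), Scn7a (-0.32) and Scn3a (Y00766_g_at, -0.35). With arrays left out it ran from -0.013 (without control 1) to 1.56 for Scn7a and from -0.36 (without ACEI 1) to 1.0029 for Scn3a. The cause was not tested.

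The replicate numbers go with the fluidics protocol in all 3 groups, and for control and ACEI also with run day and chip lot. The labels name no pairing, and deviations of same-numbered arrays correlated at 0.05, -0.02 and -0.0037. With a replicate block, 0 channel probe sets passed adjustment in each comparison, and over all probe sets 3 passed for RAS blockade, 2 for ACEI, 4 for ARB and 1 for ARB against ACEI.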
